A study of Mus musculus with 6 samples.

Results

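The genes described here are 38 named neighbours of Tnfrsf1a on mouse chromosome 6, among 30419 genes with a value in the whole colon. Tnfrsf1a, which encodes tumour necrosis factor receptor 1, is the gene inactivated in the knockout mice of the study. Its neighbours were selected by name and position, with the gene sums and isoform shares of these same 6 libraries in view, and all 38 were found on chromosome 6 of mm10, from 175 bases beyond the end of Tnfrsf1a (Plekhg6) to 9.74 Mb away (Gprc5d). They are not all the genes there: another 309 genes with a value lie within 10 Mb. Of the 38 neighbours, 28 lie within 1 Mb of Tnfrsf1a, 16 are on the plus strand and 22 on the minus strand.

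The study compared RNA from whole colons of 3 wild-type mice with that of 3 mice lacking Tnfrsf1a, labelled R1ko, all males aged 12 weeks. Both groups are labelled C57Bl/6J, and no treatment is named for either. The part of Tnfrsf1a that was removed, the strain of embryonic stem cells in which the allele was made, the number of backcrosses, and whether the wild-type mice were littermates are not given in the sources used here. The list of neighbours was drawn up with results of this same comparison known, so the differences between knockout and wild type given for them are descriptions. Where a count of neighbours that passed a threshold of the fit over all genes is printed, the share of all genes stands beside it and nothing is read from the count.

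A gene disrupted in embryonic stem cells of one mouse strain can keep a stretch of that strain's chromosome around it when the allele is crossed into another strain. The genes beside a knocked-out locus may then differ between knockout and wild-type mice in their own DNA, and in a comparison of 2 groups flanking sequence and the loss of the receptor cannot be told apart. The stretch around Tnfrsf1a is rich in genes that most cells use. It holds the glycolytic enzymes Gapdh and Tpi1, the chromatin remodeller Chd4 and the rRNA-modifying enzymes Emg1 and Nop2 next to genes of narrower use, such as the T cell inhibitory molecule Lag3 and the neurotrophin Ntf3.

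The promoters of these genes hold many CpG dinucleotides and GC boxes. RefSeq (GRCm38.p6) listed 39 promoter windows of 300 bases, 250 before and 50 after the start of transcription, for 29 of the 38 neighbours. Their median was 17 CpG dinucleotides, against 7 over 32851 windows of all genes. The letters GGGCGG, known as a GC box, were present on either strand in 79.5% of the neighbours' windows and in 35.7% of all windows. CCAAT was present in 20.5% against 37.4%, and TATAAA in 5.13% against 13.6%. Such a match is a description of the letters and not of a bound site. The windows of 3 genes are shown because their totals were lowest in knockout relative to wild type, and capitals mark these 3 motifs on either strand, with no marked motif overlapping another. Each runs 5′ to 3′ on the strand of its gene, which is the minus strand for all of them.
Ankrd26: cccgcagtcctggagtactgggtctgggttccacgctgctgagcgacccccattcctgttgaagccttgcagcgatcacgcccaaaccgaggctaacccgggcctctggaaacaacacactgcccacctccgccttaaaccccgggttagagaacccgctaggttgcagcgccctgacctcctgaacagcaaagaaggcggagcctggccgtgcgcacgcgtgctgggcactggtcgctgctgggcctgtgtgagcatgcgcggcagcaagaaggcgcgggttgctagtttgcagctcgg
Gprc5d: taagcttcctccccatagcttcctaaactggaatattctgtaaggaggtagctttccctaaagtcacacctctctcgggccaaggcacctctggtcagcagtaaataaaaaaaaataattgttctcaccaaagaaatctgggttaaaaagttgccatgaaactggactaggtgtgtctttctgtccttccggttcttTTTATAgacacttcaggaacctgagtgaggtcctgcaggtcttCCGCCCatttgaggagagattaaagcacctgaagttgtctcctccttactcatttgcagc
Ncapd2: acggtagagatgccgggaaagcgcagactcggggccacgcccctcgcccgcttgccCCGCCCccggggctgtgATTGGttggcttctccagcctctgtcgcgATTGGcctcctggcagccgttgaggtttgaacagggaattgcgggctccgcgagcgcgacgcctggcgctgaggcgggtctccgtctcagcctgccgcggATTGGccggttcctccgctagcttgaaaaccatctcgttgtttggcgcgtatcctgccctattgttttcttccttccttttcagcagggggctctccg
The Ankrd26 window (chr6:118562222-118562521) holds 22 CpG and none of the marked motifs. The Gprc5d window (chr6:135118234-135118533) holds 3 CpG, 1 GC box and 1 TATAAA. The Ncapd2 window (chr6:125191537-125191836) holds 29 CpG, 1 GC box and 3 CCAAT. It spans the gap of 99 bases to the start of Mrpl51 on the other strand, as placed by GENCODE M21. RefSeq places the Mrpl51 window farther on (chr6:125191950-125192249).

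Levels are given as TPM, an abundance relative to transcript length and to all other transcripts of the library, here added up over the transcripts of a gene. The study states an average of 30 M reads per sample, and the depth behind each TPM value is unknown. In wild-type replicate 2, transcripts without a gene name held 27.4% of all TPM, against 1.86 to 7.23% in the other libraries, which lowers every other value in that library. There, 68% of all genes tested, and 17 of the 35 neighbours tested, had their lowest value. Values after median-of-ratios scaling, which removes a shift common to most genes, are therefore given where they differ. Markers of colon epithelium (6 of 6 detected) summed to between 4548 and 6355 TPM in all libraries. Markers of tissue outside the bowel wall varied widely, with skeletal muscle markers between 134.6 and 2078 TPM in the wild-type mice and between 785.3 and 2006 TPM in the knockouts. Adipocyte markers summed to between 49.9 and 141.9 TPM in the wild-type mice and between 171.6 and 237.7 TPM in the knockouts, apart between the groups. Their log2 fold changes were positive in 4 of 4, with a median of 1.16. Of these, 1 passed (limma adjusted p = 0.00769, but 0.287 after scaling). The part of these tissues in the neighbours' values was not tested.

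The targeted gene itself measured 71.2, 44.1 and 63.0 TPM in the 3 wild-type mice (replicates 1 to 3 in this order, as in each list of values that follows) and 49.2, 36.5 and 46.9 TPM in the knockouts, with overlap between the groups. After scaling it measured 62.9, 56.2 and 57.4 TPM against 46.4, 39.8 and 43.98 TPM, lower in every knockout. Its full-length transcript, ENSMUST00000032491, made up 94.97, 90.3 and 93.8% of the wild-type total and 47.8, 55.9 and 54.6% of the knockout total. This share did not overlap between the groups. As TPM, the full-length form measured 67.6, 39.9 and 59.1 in the wild-type mice and 23.5, 20.4 and 25.6 in the knockouts. These are estimates per annotated form, and the part of the gene removed is not given. They therefore do not show that the knockouts made an intact full-length transcript. A shorter form, ENSMUST00000125880, is annotated as nonsense-mediated decay and starts inside the gene, at 125357371 against 125349723 for the full-length form. It measured 1.20, 1.20 and 0.890 TPM in the wild-type mice and 18.0, 12.4 and 14.1 TPM in the knockouts (limma adjusted p = 0.00124). It held 1.94 ± 0.694% of the wild-type total and 33.6 ± 3.26% of the knockout total (SD, n = 3). On one side, the nearest gene is Scnn1a, the alpha subunit of the epithelial sodium channel, which ends 4.42 kb before Tnfrsf1a and is not among the 38. Scnn1a measured 66.7, 62.4 and 72.7 TPM in the wild-type mice and 80.0, 74.2 and 81.8 TPM in the knockouts, apart as deposited but overlapping after scaling. On the other side, Plekhg6, which encodes a protein with a pleckstrin homology domain, runs towards Tnfrsf1a and ends 175 bases from it. Plekhg6 measured 11.3, 6.135 and 10.7 TPM in the wild-type mice and 12.5, 10.8 and 8.94 TPM in the knockouts, so both immediate neighbours differed from wild type by less than 0.3 on the log2 scale.

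Of the 38 neighbours, 35 had a mean of at least 1 TPM and entered the fit of 14284 genes. By limma with Benjamini-Hochberg adjustment, 0 of the 35 passed an adjusted p of 0.05, where 0.266% of all genes passed, and 5 had an unadjusted p under 0.05, where 3.7% of all genes did. After scaling, 0 of the neighbours and 0.042% of all genes passed. The 3 knockout values lay apart from the 3 wild-type values in 4 of the 35 neighbours, or 11.4%, and in 4.98% of all genes. Gprc5a was the 1 that was higher in knockout, where 3.17% of all genes were, and Ankrd26, Ncapd2 and Ntf3 were the 3 that were lower, where 1.81% of all genes were. After scaling, 13 neighbours (37.1%) were apart, where 18.5% of all genes were. Of these, 4 were higher (9.3% of all genes) and 9 lower (9.21% of all genes), and 10 neighbours then had an unadjusted p under 0.05 (11.4% of all genes). Without wild-type replicate 2 the count was 17, where 31.7% of all genes were apart.

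The median log2 fold change of the 35 neighbours, knockout over wild type, was −0.02, and that of all genes 0.03 (on log2(TPM + 0.5), a scale that understates the change of low genes). A difference of at least 0.3 in size was present in 10 neighbours, and the remaining 25 (71.4%, against 86.5% of all genes) lay between −0.29 and 0.29. The 25 tested neighbours within 1 Mb had a median of 0.00 and a range of −0.67 to 0.29, and the 10 beyond 1 Mb had a median of −0.15 and a range of −1.24 to 0.62, with 5 of at least 0.3 in size in each of these sets.

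**Figure D1:**
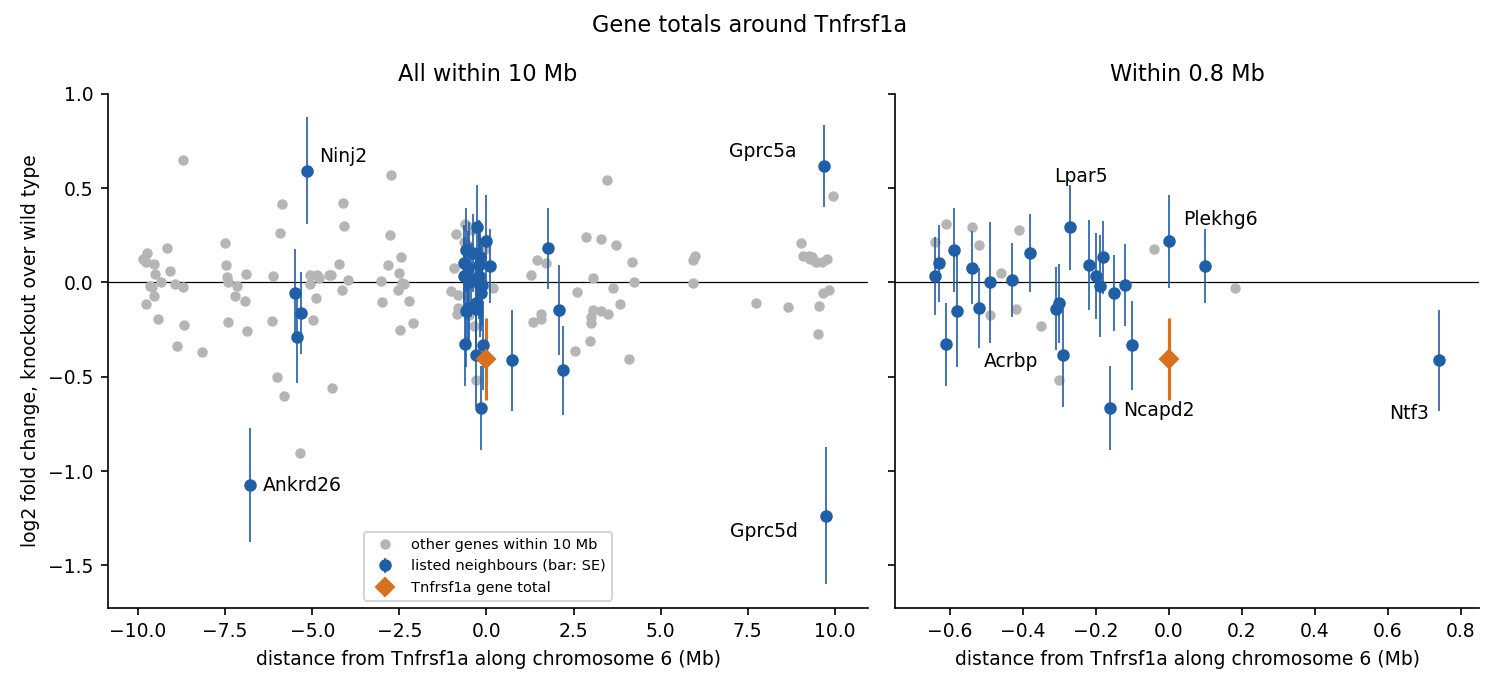
Each point is a gene total, placed by its distance from Tnfrsf1a in Mb (horizontal) and its log2 fold change of knockout over wild type (vertical); blue points with SE bars are the neighbours, grey points the other tested genes within 10 Mb, and the orange diamond Tnfrsf1a. The points farthest from 0 are Gprc5d (−1.24) and Ankrd26 (−1.08), both more than 6 Mb from Tnfrsf1a, while Ncapd2 (−0.67) is the farthest from 0 among those within 1 Mb.

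Ankrd26 encodes a protein with ankyrin repeats at the base of the primary cilium, and it lies 6.79 Mb before Tnfrsf1a. Ankrd26 (ENSMUSG00000007827; 118501308 to 118562226) measured 2.48, 2.005 and 2.71 TPM in the wild-type mice and 1.22, 0.542 and 0.931 TPM in the knockouts. Every knockout value was below every wild-type value, and the gene is weakly expressed in both groups. Its means were 2.40 ± 0.360 and 0.897 ± 0.340 TPM (SD, n = 3). The log2 fold change was −1.08 ± 0.30 (SE), −1.102 after scaling and −1.18 without wild-type replicate 2. The coding transcript ENSMUST00000112830 alone measured 1.69, 1.44 and 1.91 TPM in the wild-type mice and 0.726, 0.542 and 0.931 TPM in the knockouts, so the same order was present without the retained-intron forms.

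At the far end of the region lie Gprc5a and Gprc5d, orphan members of class C of the G protein-coupled receptors, which point towards each other across 21281 bases. Gprc5a, first known as a gene induced by retinoic acid, measured 107.2, 60.9 and 90.3 TPM in the wild-type mice and 143.2, 135.5 and 110.5 TPM in the knockouts. All 3 knockout values were higher than all 3 wild-type values, with means of 129.7 ± 17.1 and 86.2 ± 23.4 TPM (SD, n = 3), and the log2 fold change reached 0.62 ± 0.22 (SE). Without wild-type replicate 2, the lowest library, the log2 fold change of Gprc5a was 0.39, and with scaling as well it was 0.53. Among the epithelial markers, 6 of 6 were higher in knockout by their log2 fold change and 0 passed the test, with a median of 0.21, and their part in the Gprc5a difference was not tested.

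Gprc5d, which is best known from hair follicles and plasma cells, went the other way. Gprc5d measured 4.42, 0.863 and 3.20 TPM in the wild-type mice and 1.03, 0.528 and 0.705 TPM in the knockouts. Wild-type replicates 1 and 3 were high, and replicate 2 lay inside the knockout range as deposited (after scaling it was 1.099 TPM, above the highest knockout value of 0.971 TPM). The log2 fold change was −1.24 ± 0.36 (SE), −1.79 without wild-type replicate 2 and −0.86 without wild-type replicate 1. Of 6 markers of squamous epithelium and hair tested, the hair genes Krt25 and Tchh fell (limma adjusted p = 0.0358 and 0.042, but 0.351 and 0.35 after scaling), and the other 4 had positive log2 fold changes. Krt25, a root sheath keratin, measured 20.9, 2.86 and 12.1 TPM in the wild-type mice and 2.70, 1.499 and 2.84 TPM in the knockouts, high in the same replicates 1 and 3. The whole list summed to between 137.8 and 632.1 TPM in the wild-type mice and between 389.6 and 538 TPM in the knockouts. B and plasma cell markers had negative log2 fold changes in 7 of 7, with 0 past the test, and summed to between 35.6 and 57.5 TPM in the wild-type mice and between 17.3 and 38.8 TPM in the knockouts. The part of either list in the Gprc5d difference was not tested. In bulk RNA, fewer cells of a type and less RNA per cell cannot be told apart.

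**Figure D2:**
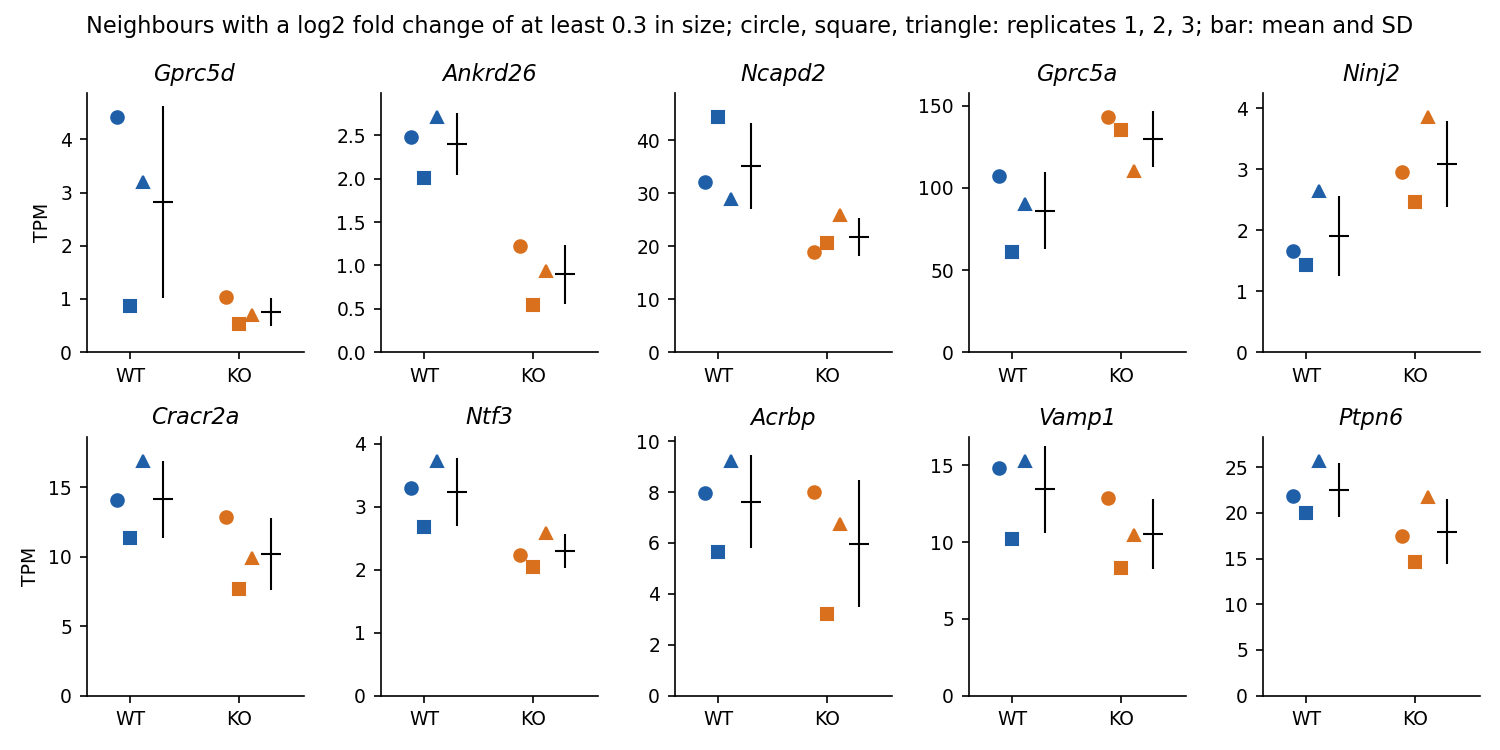
TPM per library (vertical axes, each starting at 0) in wild type (WT, blue) and knockout (KO, orange) for the 10 neighbours with a log2 fold change of at least 0.3 in size; marker shapes are replicate numbers and bars show mean and SD of 3 mice. Knockout and wild-type values are apart for Ankrd26, Ncapd2, Gprc5a and Ntf3 and overlap for the other 6.

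Ncapd2, 157.7 kb before Tnfrsf1a, encodes a non-SMC subunit of condensin I, the complex that compacts chromosomes in mitosis. Ncapd2 (ENSMUSG00000038252; 125168007 to 125191701) measured 32.2, 44.4 and 28.9 TPM in the wild-type mice and 18.9, 20.7 and 25.8 TPM in the knockouts. All knockout values were lower, with means of 35.2 ± 8.15 and 21.8 ± 3.61 TPM (SD, n = 3). The log2 fold change was −0.67 ± 0.22 (SE), or −0.35 after scaling and without wild-type replicate 2. Wild-type replicate 2, low in most genes, was the highest library here.

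The Ncapd2 difference lay outside its full-length coding form. That form, ENSMUST00000043848, measured 13.2, 10.8 and 11.3 TPM in the wild-type mice and 10.9, 10.9 and 12.2 TPM in the knockouts, with overlap between the groups. Together the coding transcripts measured 13.2 ± 1.52 and 11.7 ± 0.715 TPM (SD, n = 3), whereas the 11 other transcripts summed to 21.97 ± 8.28 and 10.1 ± 2.90 TPM, apart between the groups. One of them, the retained-intron transcript ENSMUST00000186210, measured 1.77, 17.7 and 1.07 TPM in the wild-type mice and 1.097, 3.94 and 0.443 TPM in the knockouts. Its exon overlaps 237 of the 325 bases of Scarna10, a small Cajal body RNA on the same strand (125186359 to 125186683), so reads of the small RNA and of the intron cannot be told apart. It was highest in wild-type replicate 2 and next in knockout replicate 2, the libraries in which transcripts without a gene held the most TPM (27.4 and 7.23%). Left out, the Ncapd2 total was 30.4, 26.7 and 27.9 TPM in the wild-type mice and 17.8, 16.8 and 25.4 TPM in the knockouts, still apart. With coding transcripts only, the log2 fold change of Ncapd2 was −0.17.

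**Figure D3:**
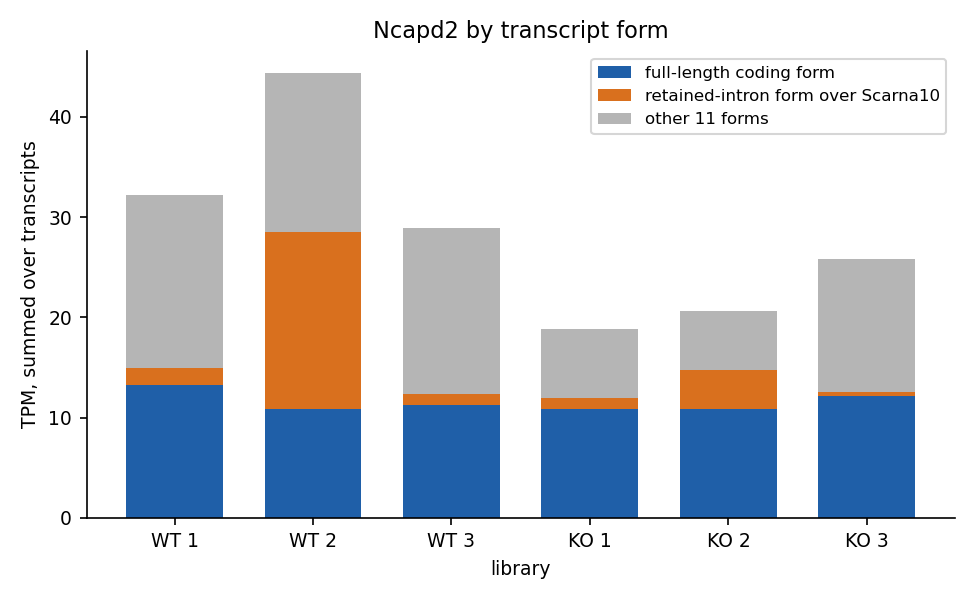
TPM of Ncapd2 (vertical) in each library (horizontal), stacked by transcript form: full-length coding form (blue), retained-intron form that overlaps Scarna10 (orange) and the other 11 forms (grey). The blue part lies between 10.8 and 13.2 TPM in all 6 libraries, the orange part reaches 17.7 TPM in wild-type replicate 2, and the grey part is smaller in each knockout library than in any wild-type library.

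Partners of Ncapd2 were looked up in the same libraries. Of 7 other condensin subunits, all tested, 0 passed the threshold, and 5 had a negative log2 fold change with a median of −0.10. Smc4, the ATPase shared by both condensins, measured 29.8 ± 4.38 TPM in the wild-type mice and 25.2 ± 4.23 TPM in the knockouts (SD, n = 3). Markers of proliferating cells summed to 159, 131.8 and 125.2 TPM in the wild-type mice and 119.4, 128.3 and 160.3 TPM in the knockouts, with overlap, and 0 of 5 passed. Mrpl51, a protein of the mitochondrial large ribosomal subunit whose start lies back to back with that of Ncapd2, measured 71.5, 53.6 and 60.9 TPM in the wild-type mice and 66.2, 52.8 and 59.4 TPM in the knockouts, a log2 fold change of −0.06.

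Ntf3 encodes neurotrophin 3, a survival factor for neurons, and lies 0.74 Mb beyond Tnfrsf1a. Ntf3 measured 3.30, 2.67 and 3.74 TPM in the wild-type mice and 2.24, 2.05 and 2.59 TPM in the knockouts. The groups did not overlap, the nearest values being 2.67 and 2.59 TPM, and the log2 fold change was −0.41 ± 0.27 (SE). Other neighbours with roles in neurons overlapped between the groups as deposited. Vamp1, a synaptobrevin of synaptic vesicles, measured 14.8, 10.2 and 15.3 TPM in the wild-type mice and 12.9, 8.33 and 10.5 TPM in the knockouts (log2 fold change −0.33), and was apart after scaling. Eno2, the neuronal enolase, measured 8.48, 3.42 and 7.66 TPM in the wild-type mice and 6.91, 3.32 and 6.90 TPM in the knockouts, low in replicate 2 of both groups. Markers of enteric neurons summed to 105.2, 70.4 and 100.8 TPM in the wild-type mice and 101.4, 94.1 and 93.4 TPM in the knockouts, with 0 of 10 past the test, and enteric glia markers to between 8.44 and 11.4 TPM and between 9.81 and 12.7 TPM.

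Ninj2 and Cracr2a complete the neighbours with larger differences among genes of the plasma membrane and its calcium entry. Ninj2, an adhesion protein induced by nerve injury, measured 1.65, 1.42 and 2.65 TPM in the wild-type mice and 2.95, 2.47 and 3.86 TPM in the knockouts. Wild-type replicate 3 lay above knockout replicate 2 as deposited and below all knockout values after scaling, and the log2 fold change was 0.59 ± 0.29 (SE). Cracr2a, a regulator of calcium release-activated calcium channels, measured 14.1, 11.4 and 16.9 TPM in the wild-type mice and 12.9, 7.69 and 9.93 TPM in the knockouts. Only knockout replicate 1 reached into the wild-type range, the groups were apart after scaling, and the log2 fold change was −0.47 ± 0.24 (SE).

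Several neighbours mark or serve immune cells. Ptpn6, the phosphatase SHP-1 that dampens signalling in blood cells, measured 21.9, 19.95 and 25.7 TPM in the wild-type mice and 17.5, 14.6 and 21.8 TPM in the knockouts (log2 fold change −0.33). Knockout replicate 3 lay inside the wild-type range. Markers of leukocytes followed the same order within the knockout, summing to 55.1, 41.3 and 67.7 TPM in the wild-type mice and 39.6, 26.6 and 60.9 TPM in the knockouts, with 5 of 5 negative, 0 past the test and a median of −0.27, and their part in the Ptpn6 difference was not tested. Lag3, an inhibitory receptor of T cells, stayed under the mean required for testing, with 1.24, 0.786 and 0.710 TPM in the wild-type mice and 0.804, 0.556 and 0.799 TPM in the knockouts. T and NK cell markers summed to between 5.46 and 8.30 TPM in the wild-type mice and between 4.56 and 7.61 TPM in the knockouts. Tapbpl, which edits peptides on MHC class I molecules, measured 17.1, 22.8 and 21.7 TPM in the wild-type mice and 18.6, 19.1 and 23.1 TPM in the knockouts. Tapbpl lies wholly inside the span of Vamp1 on the other strand, and since the use of strand in the counting is not stated, reads from the shared stretch cannot be assigned with certainty.

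Gapdh was the most abundant neighbour and Tpi1 the third, after Cd9. Gapdh, glyceraldehyde-3-phosphate dehydrogenase, measured 3424, 2366 and 3305 TPM in the wild-type mice and 3152, 3274 and 3420 TPM in the knockouts. Tpi1, triosephosphate isomerase, measured 543.1, 377.8 and 472.1 TPM in the wild-type mice and 505.2, 473.2 and 476.8 TPM in the knockouts. In both, wild-type replicate 2 was the low library and the other 5 lay close together, with log2 fold changes of 0.13 for Gapdh and 0.08 for Tpi1. Of 18 other glycolytic genes tested, 0 passed and 17 had a positive log2 fold change, with a median of 0.12. The muscle forms Pgam2 (30.9 ± 32.2 and 49.6 ± 21.0 TPM) and Eno3 (344.6 ± 97.1 and 457.3 ± 80.3 TPM; SD, n = 3) had the smallest p of that list, in libraries whose skeletal muscle markers ranged as given above.

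Apart from Ncapd2, the neighbours that act on chromatin, DNA and the cell cycle had log2 fold changes between −0.29 and 0.18. Chd4, the ATPase of the NuRD remodelling complex, measured 80.7, 43.3 and 79.8 TPM in the wild-type mice and 90.6, 54.8 and 68.2 TPM in the knockouts, low in replicate 2 of both groups. Of 13 partners of Chd4 in NuRD, 0 passed and the median was 0.04. The transcription regulators Atn1 (29.4 ± 7.75 and 32.5 ± 3.74 TPM), Zfp384 (29.3 ± 6.13 and 26.4 ± 4.52 TPM) and Ing4 (49.5 ± 9.09 and 45.4 ± 4.59 TPM; SD, n = 3) overlapped between the groups, and Ing4 was apart after scaling. Ccnd2, cyclin D2 of the G1 phase, measured 84.8, 51.8 and 74.7 TPM in the wild-type mice and 89.0, 70.8 and 75.9 TPM in the knockouts. The DNA repair protein Rad52 (14.3 ± 3.94 and 11.5 ± 2.64 TPM) and the ADP-ribosyltransferase Parp11 (9.51 ± 1.59 and 8.64 ± 2.27 TPM) also overlapped.

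Genes for ribosome making, mitochondria and protein turnover had log2 fold changes between −0.14 and 0.16. Emg1 and Phb2 start back to back across 157 bases. Emg1, a methyltransferase of 18S rRNA, measured 67.9 ± 13.5 and 68.8 ± 5.07 TPM, and Phb2, a prohibitin of the inner mitochondrial membrane, 173.2 ± 37.6 and 182.6 ± 5.32 TPM (SD, n = 3). Nop2, a methyltransferase of 28S rRNA, measured 12.8 ± 2.58 and 13.0 ± 1.36 TPM, and of 12 partners of Emg1 and Nop2 0 passed, with a median of 0.03. Usp5, a protease for free ubiquitin chains, measured 40.9, 30.5 and 40.6 TPM in the wild-type mice and 36.8, 28.8 and 35.9 TPM in the knockouts. After scaling Usp5 was lower in all knockout libraries, with a log2 fold change of −0.17. Cops7a, a subunit of the COP9 signalosome, measured 85.4 ± 17.7 and 94.0 ± 6.49 TPM (SD, n = 3) and was higher in all knockout libraries after scaling (log2 fold change 0.13). Of 8 other COP9 subunits, 0 passed, with a median of 0.09.

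The remaining neighbours serve the membrane, the cytoskeleton or the germ line. Cd9, a tetraspanin abundant in colon epithelium, measured 948, 634.9 and 949.6 TPM in the wild-type mice and 904.6, 856.2 and 885.1 TPM in the knockouts, low only in wild-type replicate 2. Of 9 other tetraspanins, 0 passed and 9 had a positive log2 fold change, with a median of 0.21. Lpar5, a receptor for lysophosphatidic acid, measured 17.9, 12.3 and 19.6 TPM in the wild-type mice and 23.0, 17.5 and 20.1 TPM in the knockouts (log2 fold change 0.29), apart after scaling. Wnk1, a kinase that sets chloride transport, measured 59.5, 38.0 and 52.5 TPM in the wild-type mice and 50.2, 36.2 and 46.5 TPM in the knockouts, also apart after scaling, and 0 of 8 genes of its pathway passed.

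Parathymosin (Ptms, 325.5 ± 48.0 and 327.1 ± 36.9 TPM), the vesicle-tethering protein Erc1 (8.25 ± 0.682 and 7.98 ± 1.52 TPM), the intermediate filament family member Iffo1 (4.06 ± 1.35 and 3.89 ± 0.656 TPM) and the orphan receptor Gpr162 (1.02 ± 0.335 and 1.02 ± 0.289 TPM; SD, n = 3) had log2 fold changes within 0.06 of 0. Acrbp, a binding protein of the sperm protease acrosin, measured 7.96, 5.64 and 9.24 TPM in the wild-type mice and 7.999, 3.21 and 6.73 TPM in the knockouts, with a log2 fold change of −0.38 and overlap between the groups. Lrrc23, a protein of sperm flagella, and Ano2, a calcium-activated chloride channel, stayed under the mean required for testing. Lrrc23 measured 0.304 ± 0.127 and 0.321 ± 0.0245 TPM, and Ano2 0.352 ± 0.0838 and 0.446 ± 0.0573 TPM (SD, n = 3).

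Across levels, 24 of the 38 neighbours had a wild-type mean of at least 10 TPM and 5 of at least 100 TPM, from 0.304 TPM for Lrrc23 to 3032 TPM for Gapdh. Of the 10 neighbours with a difference of at least 0.3, Ankrd26, Gprc5d, Ninj2, Ntf3 and Acrbp were under 10 TPM. The 5 most abundant, Gapdh, Cd9, Tpi1, Ptms and Phb2, had log2 fold changes between 0.01 and 0.13.

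Beneath the totals, 241 transcripts of the neighbours had a value and 118 of them, from 34 genes, reached a mean of 1 TPM. By limma with Benjamini-Hochberg adjustment, 0 of the 118 passed, where 0.0419% of 31056 transcripts passed, and 12 had an unadjusted p under 0.05, where 5.02% of all transcripts did. The groups were apart in 14 of the 118 (11.9%), where 8.19% of all transcripts were. Of these, 10 were lower in knockout (3.96% of all transcripts) and 4 higher (4.23%). Among the lower ones were retained-intron transcripts of Ing4 and Tpi1. Ing4 ENSMUST00000156091 measured 4.29, 3.93 and 5.47 TPM in the wild-type mice and 2.19, 1.59 and 3.92 TPM in the knockouts. Tpi1 ENSMUST00000139716 measured 5.36, 3.89 and 6.12 TPM in the wild-type mice and 3.13, 0.303 and 2.62 TPM in the knockouts. These forms were lower in every knockout library while the gene totals overlapped.

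In 21 neighbours, coding and other annotated forms each reached 1 TPM. The median log2 ratio of knockout to wild-type means was 0.06 for the coding forms and −0.32 for the others, and over 4859 genes of the whole colon the same medians were 0.05 and −0.23. The other forms had the lower ratio in 17 of the 21 neighbours (81%) and in 75.1% of all genes. Tpi1 had coding forms of 447 ± 80.9 and 473.7 ± 14.3 TPM and other forms of 17.4 ± 2.16 and 11.4 ± 4.77 TPM (SD, n = 3). Rad52 showed both directions, with coding forms of 2.38 ± 0.637 and 3.08 ± 0.502 TPM and other forms of 11.9 ± 3.99 and 8.39 ± 3.13 TPM. Retained-intron transcripts held between 3.58 and 4% of annotated TPM in the wild-type libraries and between 2.45 and 3.47% in the knockout libraries, and the part of this library-wide difference in the neighbours' values was not tested.

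**Figure D4:**
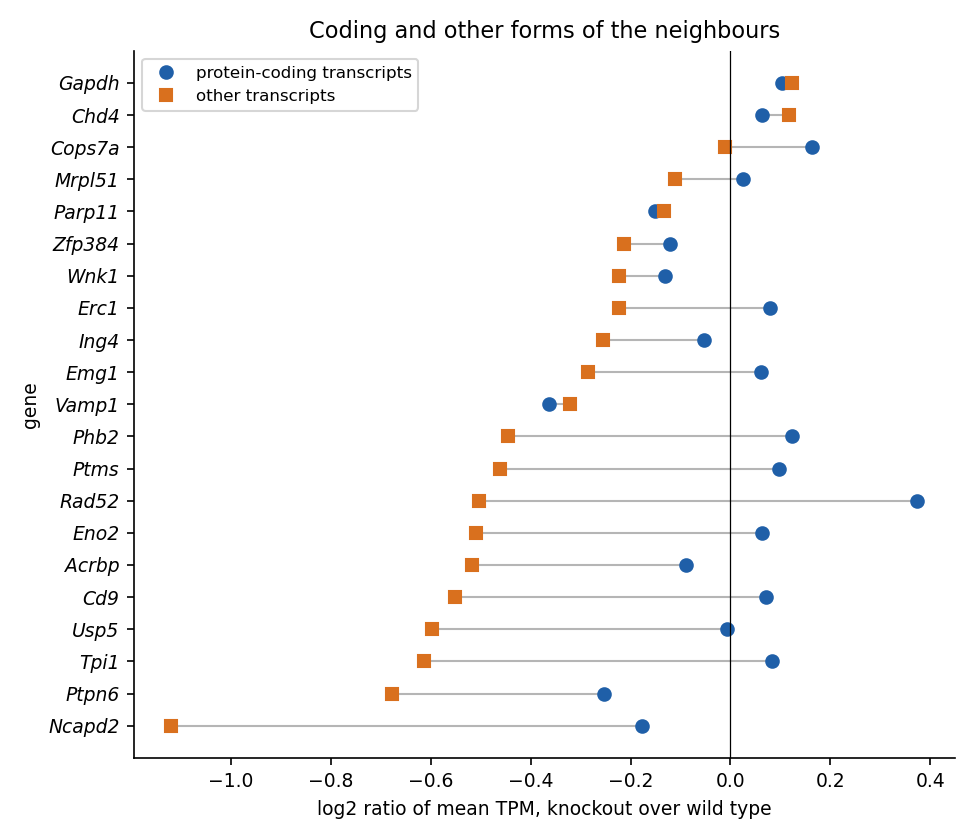
For the 21 neighbours (vertical) whose coding and other transcripts each reach 1 TPM, the log2 ratio of mean TPM in the knockouts over wild type (horizontal) is shown for coding transcripts (blue circles) and the others (orange squares). The squares lie left of the circles in 17 of 21 genes, farthest in Ncapd2.

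A transcript's share of its gene does not move with the scaling of a library. Among 103 shares from 27 neighbours, 0 passed in limma, where 0.0189% of 26524 shares passed, and 10 had an unadjusted p under 0.05, where 8.15% of all shares did. The groups were apart in 20 of them (19.4%, from 13 genes), where 16.1% of all shares were. Of the 20 shares, 9 were higher in knockout (7.83% of all shares) and 11 lower (8.26%). The full-length coding form held 34.8 ± 9.04% of Ncapd2 in the wild-type mice and 52.3 ± 5.21% in knockout (SD, n = 3). In Erc1, ENSMUST00000183703 held 38.0 ± 4.09% and 47.8 ± 2.16%. Eno2's coding form ENSMUST00000004378 held 35.9 ± 4.53% and 50.0 ± 11.2%. Each of these coding forms held a larger share in every knockout library than in any wild-type library.

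In weakly expressed genes, Gprc5d among them, a small amount of TPM moves a share. In Gprc5d the form ENSMUST00000111922 held 94.3 ± 9.86% in the wild-type mice and 47.2 ± 41.6% in knockout, where the total was at most 1.03 TPM and the share differed widely between mice. Zfp384 ENSMUST00000112427, a coding form, measured 0.129, 0.361 and 2.08 TPM in the wild-type mice and 2.61, 3.48 and 2.53 TPM in the knockouts and held 2.71 ± 2.99% and 11.3 ± 4.08% of its gene. Rad52 ENSMUST00000162255, a processed transcript, held 8.003 ± 1.95% and 2.03 ± 0.491%. Both were apart between the groups, in opposite directions. Their genes had higher totals than Gprc5d, with wild-type means of 29.3 TPM for Zfp384 and 14.3 TPM for Rad52.

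Of the 309 other genes within 10 Mb, 124 were tested and 0 passed in limma (smallest adjusted p = 0.54), 5 had an unadjusted p under 0.05, and 7 (5.65%) were apart, beside 4.98% of all genes. The 4 with the smallest p, predicted genes aside, had log2 fold changes of 0.57 (Apobec1, an RNA editing enzyme), −0.56 (Bid, a pro-apoptotic BCL2 relative), 0.65 (8430408G22Rik) and −0.60 (Wnt5b, a Wnt ligand). Among shares, of the 5 that passed in the whole colon, 4 were on chromosome 6 within 20 Mb of Tnfrsf1a. They were 1 transcript of Tnfrsf1a, 1 of Atg7 and a complementary pair of B4galnt3, a glycosyltransferase 2733 bases from Ninj2.

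B4galnt3 overlapped in its total, with 47.9, 42.8 and 57.6 TPM in the wild-type mice and 53.4, 41.9 and 51.7 TPM in the knockouts, while its form ENSMUST00000057283 went from 53.9, 46.8 and 42.8% to 96.9, 96.3 and 99.2% of that total (limma adjusted p = 0.0372). That share call was lost when any 1 library was left out (0 of the 2 B4galnt3 shares passed). Over all 26524 shares, 0 to 2 passed in those fits. The other form, ENSMUST00000125341, measured 22.1, 22.7 and 33.0 TPM in the wild-type mice and 1.67, 1.54 and 0.394 TPM in the knockouts. As a transcript it passed (limma adjusted p = 0.00234, and 0.0458 after scaling). It still passed with any 1 library left out other than wild-type replicate 2, without which it did not pass. Apobec1 ENSMUST00000112587 held 40.1, 40.4 and 40.3% in the wild-type mice and 72.4, 78.5 and 67.1% in knockout, without passing (limma adjusted p = 0.18). Shares with an unadjusted p under 0.05 made up 12.6% of those within 10 Mb, neighbours included, and 8.07% of those on other chromosomes. By distance they made up 8.18% within 1 Mb, 15.5% from 1 to 5 Mb, 14.2% from 5 to 10 Mb and 14.6% from 10 to 20 Mb. These differences were not tested. Among the neighbours with a tested share, Gprc5d aside, the differences lay within 18 points (−15.3 to 18.0), the highest in Ptpn6.

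**Figure D5:**
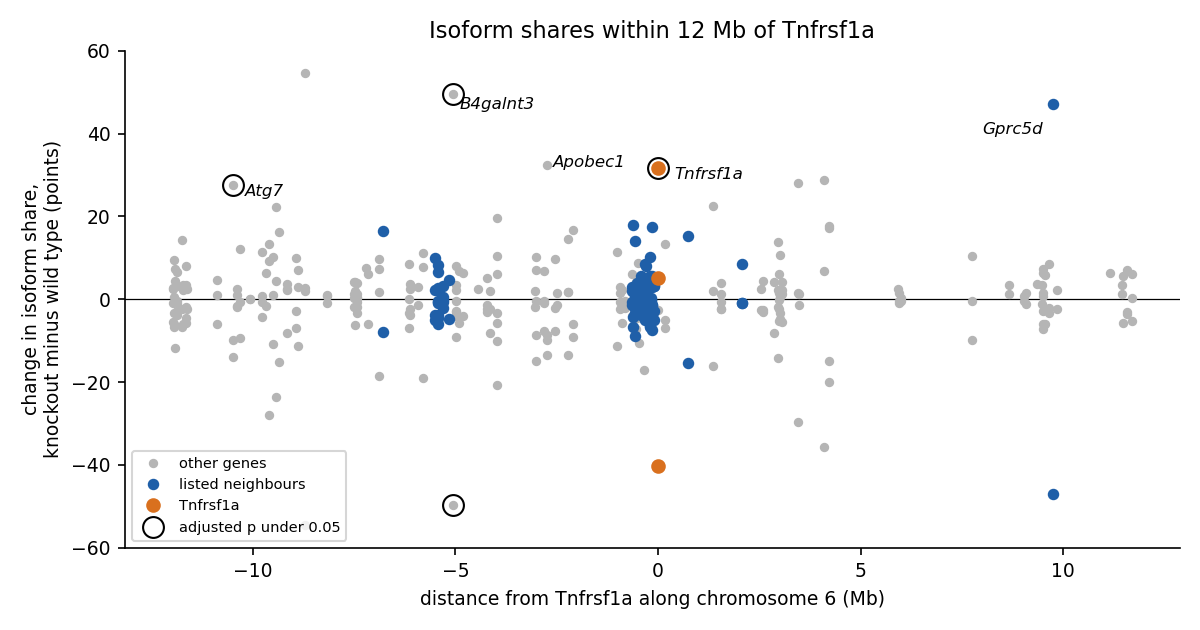
Each point is a transcript, placed by the distance of its gene from Tnfrsf1a in Mb (horizontal) and the change of its share of the gene total, knockout minus wild type, in points (vertical). Neighbours are blue, Tnfrsf1a orange and other genes grey; circled points passed the threshold and belong to B4galnt3 (49.6 and −49.6), Tnfrsf1a (31.6) and Atg7 (27.5), while the blue points farthest from 0 are the Gprc5d pair (47.1 and −47.1).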

How the data were processed

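The authors deposited 1 table of TPM per transcript. Per the submitters' processing notes it was made with kallisto 0.43.1 on mm10 and tested with sleuth, whose results were not used here; per the labels' protocols, a PureLink kit gave the RNA, and its polyadenylated part went into SMARTer Universal Low Input libraries. The transcript set and the use of strand are not given in the sources used here. The 132639 lines held 131206 transcripts, and 1433 lines that repeated a transcript at the same values were dropped. Transcripts with no value (43008) or no gene (1380) were left out.

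TPM were summed per gene. Positions, gene types and transcript types came from GENCODE M21 (mm10), which matched 30133 of 30419 genes. Log2(TPM + 0.5) was compared with limma 3.58.1 in R 4.3.3 (variance trend, two-sided, Benjamini-Hochberg over all features with a mean of at least 1 TPM, threshold 0.05), for gene totals and single transcripts. Isoform shares were compared after an arcsine square root, for shares of 5 to 95% in genes of at least 1 TPM. The fit was tested on simulated data. Median-of-ratios factors were 1.13, 0.786 and 1.10 (wild-type replicates 1 to 3) and 1.06, 0.918 and 1.07 (knockout). With 3 mice a group, an exact permutation test cannot go below 0.1, so none was run for single genes; nothing states that the mice came from separate litters or cages, so p-values measure the spread between these samples.

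The 38 genes, the pathway and marker lists and the alternatives were chosen with earlier results of these data known. Genes were named by rule: Tnfrsf1a, every neighbour, the nearest gene on each side, other genes within 10 Mb past the threshold or else the 4 with the smallest p, and up to 3 per pathway list; Krt25, Tchh and Apobec1's transcript were chosen after their values were seen. Alternatives covered the pseudocount, filters, scaling, the variance model, a replicate block, windows and each library left out.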

Additional observations from a re-analysis of the deposited data

How the results depend on the processing

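The TPM table gives no counts, so depth limits are unknown, and genes near 1 TPM (Ankrd26, Gprc5d, Ninj2) are the least certain. The neighbours called in gene totals numbered 0, and 2 with robust variance estimation (Ankrd26 and Gprc5d), 0 to 1 with a library left out (Gprc5a without wild-type replicate 1, Gprc5d without knockout replicate 1) and, as an alternative chosen after seeing the data, 1 with coding transcripts only (Gprc5d). Other genes within 10 Mb called numbered 0, and 1 with a filter at 5 TPM, 0 to 1 with a library left out and 1 with coding transcripts only (B4galnt3, limma adjusted p = 0.0011). Neighbours with groups apart numbered 4, where 4.98% of all genes were apart, and 2 with a filter at 5 TPM (4.54% of all genes), 13 with median-of-ratios scaling (18.5%), 12 with quantile normalization (16.7%), 11 with TPM rescaled over transcripts that have a gene (21%) and 5 to 17 with a library left out (8.85 to 31.7%, both highest without wild-type replicate 2). Scaled without wild-type replicate 2 there were 14 (26.9%). Rescaling over transcripts with a gene moved the median log2 fold change of all genes from 0.03 to −0.10 and of the neighbours from −0.02 to −0.14. Called transcripts of other genes within 10 Mb numbered 1, and 0 without a filter, 2 at 5 TPM, 2 with median-of-ratios scaling, 0 with quantile normalization, 0 to 2 with a library left out and 0 scaled without wild-type replicate 2; called shares there numbered 2, and 0 with any library left out. The cause of these moves was not tested. Over all genes, 38 passed, from 2 without a filter to 307 without wild-type replicate 1; over all transcripts 13, from 1 to 57; over all shares 5, from 0 to 11. The signs of Ankrd26, Ncapd2, Gprc5a, Gprc5d, Ntf3, Ninj2 and Cracr2a were the same in each alternative run for them (18 or 19). The alternatives reuse the same libraries, and signs were as constant in some neighbours with smaller differences, such as Ing4 and Zfp384. Nothing is read from these signs.

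With the replicate number as a block, neighbours called numbered 0 and their median was −0.02, called transcripts of other genes within 10 Mb numbered 0, called shares 0, and 71 genes passed over the whole set; with scaling and the block, 13 neighbours were apart and 0 transcripts of other genes were called. The numbers were not taken to pair the samples: correlations of deviations between same-numbered libraries were 0.0521, 0.132 and 0.184, and each wild-type library, but not knockout replicate 1 (0.0981 with wild-type replicate 3), correlated best with its own number.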
